A study of Mus musculus with 12 samples.

Results

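The transcripts of 9 lysosomal proteases and their main secreted inhibitor were followed in mouse skin: cathepsins B, C, D, H, K, L, S and Z (Ctsb, Ctsc, Ctsd, Ctsh, Ctsk, Ctsl, Ctss and Ctsz), legumain (Lgmn) and cystatin C (Cst3). They were taken by gene symbol from a table of read counts for 55453 genes. All 10 were present, and all 10 passed a filter on low counts that kept 18311 genes for testing.

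Lysosomes are acidic compartments in which proteins taken up by the cell or delivered by autophagy are broken down. Most cathepsins are cysteine proteases made as inactive precursors, tagged with mannose 6-phosphate and activated in the acid lumen, while cathepsin D is an aspartic protease and legumain cuts after asparagine. Cathepsins B, D and L are made by most cells. Cathepsin S is abundant in macrophages, dendritic cells and B cells, where it trims the invariant chain of MHC class II, and cathepsin K is the collagen-degrading enzyme of osteoclasts that is also made by fibroblasts and some macrophages. Cystatin C is secreted by many cells and blocks cysteine cathepsins outside the cell, and also inhibits legumain.

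The study asked how the loss of Thy-1 (CD90), a glycoprotein anchored on the surface of fibroblasts, T cells and neurons, alters skin fibrosis. Skin RNA of 12 C57BL/6 mice was sequenced, 3 from each combination of genotype (WT or Thy1-knockout, here KO) and injection (PBS or bleomycin, BLM), and the resulting 4 groups are called KO BLM, KO PBS, WT BLM and WT PBS. Bleomycin is a drug that makes skin fibrotic where it is injected, and it was given under the skin of the back at 10 mg/kg per day, with PBS as its vehicle in the controls. Per the study's methods injections ran for up to 14 days, the series record gives 21 days of treatment, and day 21 was the day of harvest. The KO mice lacked Thy-1 in all cells, had been backcrossed to C57BL/6 and were females 8 to 12 weeks old. The WT mice were C57BL/6J, controls were littermates, and no age was given for the WT mice.

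Library totals ran from 26473700 to 38890450 counts. The knocked-out gene itself, Thy1, stood at 104 to 150 CPM in WT PBS and 231 to 416 CPM in WT BLM, against 45.6 to 96.9 CPM in KO PBS and 84.7 to 128 CPM in KO BLM, so reads on the gene remained in the KO mice (CPM is a gene's share of the counts, scaled to a fixed total after TMM normalization between libraries). Both KO groups were below the WT group of the same treatment in every mouse. Genes of growing hair set some mice apart. The summed level of 21 genes of growing hair was 49300 to 70900 CPM in WT PBS and 74.1 to 863 CPM in WT BLM. In KO PBS it was 78400 CPM in mouse 136 but 70 CPM in mouse 137 and 268 CPM in mouse 139, and in KO BLM it was 37600 CPM in mouse 141 but 3710 and 6240 CPM in mice 143 and 144. KO PBS 136 and KO BLM 141 thus stood apart from the other mice of their groups, and results that rest on KO mice are given with and without them. Among WT mice, 12 of these 21 genes were called at a lower level with bleomycin by the test used below, and 0 in the other direction. Treatment and hair gene level therefore cannot be told apart in the WT groups.

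The 10 transcripts together held between 0.353% (WT PBS 159) and 0.576% (KO BLM 144) of all counts of a mouse. The levels of Ctsb, Ctsc, Ctsd, Ctsh, Ctsl, Ctsz and Cst3 stayed within a range of 1.96-fold (Ctsh) to 2.60-fold (Ctsl) over all 12 mice. The range was wider for Lgmn (5.42-fold) and Ctsk (7.38-fold), and widest for Ctss, which went from 35.3 CPM in KO PBS 136 to 644 CPM in WT BLM 147, an 18.2-fold range. Genes were ordered by level within a group on CPM per kb of merged exons. In WT PBS skin Ctsd (291 ± 11.8 CPM per kb, SD, n = 3), Ctsb (265 ± 44.5) and Cst3 (218 ± 11.7) were the highest, followed by Ctsl (94.1 ± 17.6) and Ctsz (87.1 ± 13.7). Lgmn (44.3 ± 10.5 CPM per kb), Ctsk (44.1 ± 2.73), Ctsc (38.9 ± 4.77), Ctss (38.8 ± 8.98) and Ctsh (31.1 ± 3.60) were the lowest. Of the 9 neighbouring pairs in this order, 7 overlapped between mice, and only the steps from Cst3 to Ctsl and from Ctsz to Lgmn did not. In WT BLM skin Ctss stood at the top of the order with 415 ± 56.5 CPM per kb, beside Cst3 (391 ± 56.3) with which it overlapped. Ctsd (304 ± 47.2 CPM per kb), Ctsb (252 ± 65.6), Lgmn (159 ± 25.1), Ctsk (158 ± 97.0) and Ctsz (145 ± 27.9) followed, and Ctsl (78.2 ± 19.1), Ctsc (46.3 ± 13.6) and Ctsh (45.8 ± 7.17) were last. The 2 steps without overlap between mice in WT BLM were those from Ctsz to Ctsl and from Ctsl to Ctsc.

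In KO PBS skin Cst3 led with 392 ± 151 CPM per kb, before Ctsd (279 ± 66.9) and Ctsb (247 ± 83.8). In KO BLM skin Ctsd led with 429 ± 120 CPM per kb, before Cst3 (399 ± 83.0) and Ctss (305 ± 109). All 9 neighbouring pairs overlapped between mice in KO PBS and 8 of 9 in KO BLM, where only Ctsl (105 ± 24.8 CPM per kb) was clear of Ctsh, which had a mean of 41.1 CPM per kb. The merged exons count rare isoforms in full, which lowers Ctsc and Ctsh most. With the longest principal transcript of each gene in their place, Ctsc moved from place 8 to place 5 and Ctsh from place 10 to place 7 in WT PBS, and in WT BLM Ctss (416 CPM per kb) came after Cst3 (576 CPM per kb). The leading gene also moved in other groups. In WT PBS Ctsb led with 338 CPM per kb of the principal transcript, before Cst3 (322) and Ctsd (321), and in KO BLM Cst3 (587) came before Ctsd (474).

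**Figure D1:**
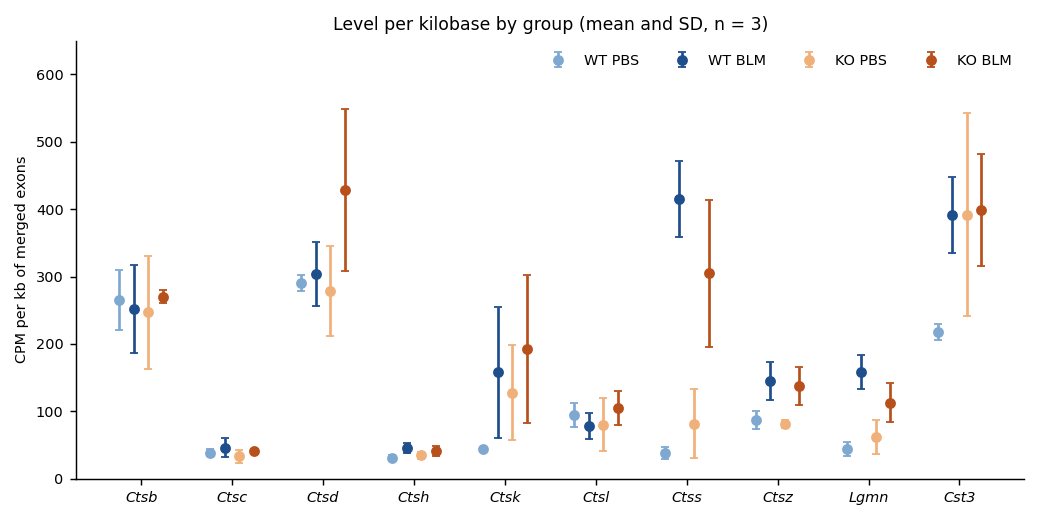
Level of each gene in CPM per kb of merged exons (linear axis from 0), with 1 colour for each of the 4 groups; points are group means and bars are SD over 3 mice. Ctss moved from 38.8 CPM per kb in WT PBS, among the lowest, to 415 CPM per kb in WT BLM, the highest of the 10.

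Ctss and Ctsk lie next to each other on chromosome 3 (GRCm38, GENCODE M21), both on the plus strand. Ctsk spans 95499256 to 95509362 and Ctss spans 95526786 to 95556403, each as 8 merged exons, with 17423 bases and 0 annotated genes between them. The other 8 genes are scattered, Ctsz and Cst3 on chromosome 2, Ctsc and Ctsd on chromosome 7, and Ctsh, Lgmn, Ctsl and Ctsb on chromosomes 9, 12, 13 and 14. RefSeq start sites gave 9 windows of 250 bases before the start for 8 of the 10 genes, 2 of them for Lgmn. Of these windows, 5 held no base of an exon of the same gene in GENCODE. The windows of Ctss and Ctsk are shown because these neighbours had the widest ranges between mice, and that of Ctsz because, like Ctss, it did not overlap between bleomycin and PBS mice in either genotype. They are written 5′ to 3′ on the gene's strand (RefSeq, GRCm38.p6), ending at the base before the start. For the Ctsk window, and for the Lgmn window in which a motif was found, the first 30 bases transcribed from the RefSeq start are not in a GENCODE transcript, so the start was not shared by the annotation used for the genes.

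Ctss, chr3:95526536-95526785, plus strand: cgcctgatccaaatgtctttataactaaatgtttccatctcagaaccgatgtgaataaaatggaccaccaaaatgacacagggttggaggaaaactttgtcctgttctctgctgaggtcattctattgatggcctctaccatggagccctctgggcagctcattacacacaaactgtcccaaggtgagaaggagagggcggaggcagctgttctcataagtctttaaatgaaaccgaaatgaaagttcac
Ctsk, chr3:95498960-95499209, plus strand: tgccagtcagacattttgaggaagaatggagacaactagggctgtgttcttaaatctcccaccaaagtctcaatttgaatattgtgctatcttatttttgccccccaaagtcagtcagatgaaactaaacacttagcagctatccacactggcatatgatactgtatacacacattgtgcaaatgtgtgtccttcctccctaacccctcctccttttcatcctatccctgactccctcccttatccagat
Ctsz, chr2:174439040-174439289, minus strand: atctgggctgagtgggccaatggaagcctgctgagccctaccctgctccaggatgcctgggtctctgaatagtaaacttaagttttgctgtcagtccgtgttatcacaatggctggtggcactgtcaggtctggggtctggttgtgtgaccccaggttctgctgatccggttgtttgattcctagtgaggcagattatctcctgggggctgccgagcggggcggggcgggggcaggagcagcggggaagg

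The GC content was 44.8% in the Ctss window and 43.2% in the Ctsk window, against 58.8% for Ctsz and 67.2% for Ctsd. The windows were searched on both strands for the E-box CACGTG, for TCACGTGA, the palindromic core of the CLEAR element through which the transcription factor TFEB acts on lysosomal genes and which itself contains the E-box, and for GAGGAAGT, a core recognised by the myeloid factor PU.1. An E-box was found in 3 of the 9 windows (Ctsd, Ctsl and 1 of those of Lgmn), while 6.02% of all 32851 mouse promoter windows held 1. The CLEAR core was found in 1 window, that of Ctsd, and in 0.785% of all windows. The PU.1 core was found in 1 window, that of Ctsc, and in 2.44% of all windows. None of the 3 motifs was found in the windows of Ctss, Ctsk, Ctsz or Cst3. The site in Ctsd begins at position -99 before the RefSeq start and lies inside an exon of another Ctsd transcript in GENCODE. It is shown with its CLEAR core in capitals.

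Ctsd, chr7:142387908-142387937, minus strand: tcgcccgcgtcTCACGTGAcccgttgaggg

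In WT mice given bleomycin 6 of the 10 transcripts were higher than in WT mice given PBS and none was lower (edgeR, adjusted p under 0.05 over all genes tested). The 6 were Ctss, Lgmn, Ctsk, Cst3, Ctsz and Ctsh, and in each of them the lowest WT BLM mouse was above the highest WT PBS mouse. Ctsb, Ctsc, Ctsd and Ctsl did not pass the test. Without KO BLM 144, WT BLM 146 or WT PBS 161 the count was 3, and without WT BLM 147, WT PBS 159 or WT PBS 160 it was 2. Shares of all genes called in those fits are not given here. Many other genes changed too. In this comparison with all mice, 34% of the 18311 genes passed, 19.8% in the upward direction, and the groups did not overlap for 57% of genes. The median log2 fold change of the 10 was 0.65, against 0.02 over all genes tested. In bulk skin, a change in the number of cells of a type and a change in the RNA of each cell cannot be told apart.

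Ctss, the class II antigen-processing cathepsin, rose most. It stood at 41.0, 52.0 and 65.3 CPM in the WT PBS mice and at 491, 557 and 644 CPM in the WT BLM mice. The lowest bleomycin-treated mouse was far above the highest control. The fold was 10.7 (95% confidence interval 4.82 to 23.7), a log2 fold change of 3.42 with SE 0.52 and an adjusted p of 0.00431 in edgeR, which placed Ctss at rank 209 of all genes tested by p. With any of the 12 mice left out the log2 fold change stayed between 3.25 and 3.60 and the call held in all 12 fits.

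Lgmn, the asparaginyl endopeptidase that also processes other cathepsins, stood at 79.6, 101 and 128 CPM in WT PBS and at 315, 365 and 431 CPM in WT BLM. Here too the groups were well separated. Its fold was 3.60 (2.19 to 5.90), the log2 fold change 1.85 with SE 0.32, and the adjusted p 0.0056 (edgeR). This call also held in all 12 fits with a mouse left out.

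Ctsk, the collagenolytic cathepsin, behaved unevenly. Its WT PBS values were 61.8, 69.0 and 69.0 CPM and its WT BLM values were 81.1, 263 and 371 CPM. WT BLM 145 was close to the controls while the other WT BLM mice were far above them. The fold was 3.58 with a wide interval (1.41 to 9.06), the log2 fold change 1.84 with SE 0.61, and the adjusted p 0.0405 (edgeR). The log2 fold change was 1.37 without WT BLM 146 and 2.25 without WT BLM 145. The adjusted p ran from 0.0221 to 0.130 over the 12 fits, and the call was lost without KO BLM 144, WT BLM 146, WT BLM 147 or any of the 3 WT PBS mice.

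Cst3, the inhibitor, stood at 265, 272 and 293 CPM in WT PBS and at 429, 486 and 571 CPM in WT BLM. Every treated mouse was above every control. Its fold was 1.79 (1.16 to 2.76), the log2 fold change 0.84 with SE 0.28, and the adjusted p 0.0427 (edgeR). This call was lost without any 1 of the 6 WT mice and without KO BLM 143 or KO BLM 144, with an adjusted p of 0.132 at most.

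Ctsz, a carboxypeptidase, stood at 103, 135 and 138 CPM in WT PBS and at 169, 209 and 250 CPM in WT BLM. The fold was 1.67 (1.24 to 2.25), the log2 fold change 0.74 with SE 0.19, and the adjusted p 0.0194 (edgeR). Without WT BLM 147, WT PBS 159 or WT PBS 160 the call was lost, with an adjusted p of at most 0.0765. Ctsh, an aminopeptidase, stood at 121, 148 and 150 CPM in WT PBS and at 172, 209 and 237 CPM in WT BLM. Its fold was the smallest of the 6, 1.47 (1.11 to 1.96), with a log2 fold change of 0.56, SE 0.18 and an adjusted p of 0.0401 (edgeR). It kept its call in 5 of the 12 fits with a mouse left out and lost it without KO PBS 139, KO BLM 144, WT BLM 146, WT BLM 147 or any WT PBS mouse. With no filter on low counts Ctsh (adjusted p = 0.0966) and Cst3 (adjusted p = 0.0647) were not called in edgeR, which left 4 of the 10.

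The 4 transcripts that did not pass included the most abundant by CPM. Ctsb, a broadly made cysteine protease, was at 1342, 1880 and 1594 CPM in WT PBS and 1072, 1808 and 1698 CPM in WT BLM. The groups overlapped almost fully, and the log2 fold change was -0.07 (95% interval -0.70 to 0.55). Ctsd, the aspartic protease, was at 662 to 715 CPM in WT PBS and 636 to 841 CPM in WT BLM, with a log2 fold change of 0.06 (-0.48 to 0.60). Ctsc, the dipeptidyl peptidase that activates granule proteases of immune cells, was at 199 to 254 CPM and 178 to 320 CPM, with a log2 fold change of 0.25 (-0.29 to 0.80). Ctsl, made in most cells and needed for normal hair follicle cycling, was at 481 to 700 CPM and 431 to 650 CPM, with a log2 fold change of -0.27 (-1.01 to 0.48). The upper ends of these 4 intervals, 0.48 to 0.80, were close to the log2 fold changes of Ctsh and Ctsz. Ctsb shares 774 exon bases with Fdft1 on the opposite strand. Fdft1 held 29777 counts in all against 590752 for Ctsb, and whether strand was used in the counting was not given.

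**Figure D2:**
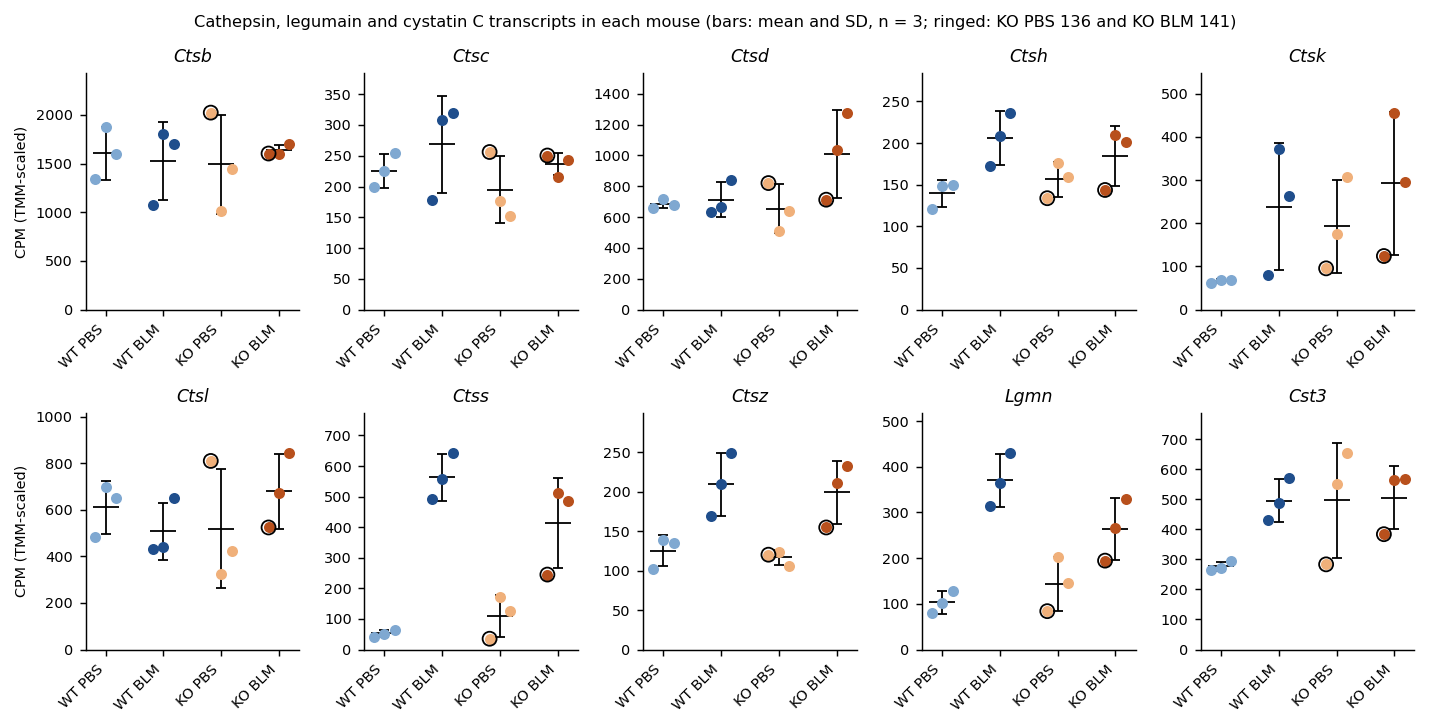
CPM of each gene in each of the 12 mice (points, linear axes from 0 that differ between panels) with the mean and SD of each group of 3 as black bars; KO PBS 136 and KO BLM 141 are ringed. Ctss, Lgmn, Ctsk, Cst3, Ctsz and Ctsh did not overlap between WT PBS and WT BLM, and Ctss lay at 41.0 to 65.3 CPM in WT PBS and at 491 to 644 CPM in WT BLM.

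In KO mice given bleomycin none of the 10 transcripts passed the test against KO mice given PBS, and 0.306% of all genes tested did (edgeR, 56 genes). At an unadjusted p under 0.05 there were 4 of the 10, Ctsz, Ctss, Lgmn and Ctsd, beside 3665 of all genes tested. All 10 had a log2 fold change above 0, with a median of 0.49 against -0.01 over all genes tested. Only for Ctss and Ctsz did the groups not overlap, as for 19.3% of all genes.

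Ctss stood at 35.3, 170 and 127 CPM in KO PBS mice 136, 137 and 139 and at 245, 512 and 487 CPM in KO BLM mice 141, 143 and 144. The lowest value of each group belonged to the mouse with growing hair genes. The fold was 3.74 (1.77 to 7.91), with a log2 fold change of 1.90, SE 0.49 and an adjusted p of 0.116 (edgeR). Ctsz stood at 120, 124 and 107 CPM in KO PBS and at 155, 211 and 232 CPM in KO BLM. Its fold was 1.71 (1.27 to 2.30), with a log2 fold change of 0.77, SE 0.19 and an adjusted p of 0.111 (edgeR), close in size to the 0.74 of WT mice. Lgmn stood at 84.0, 202 and 145 CPM and at 195, 266 and 329 CPM, so that KO PBS 137 was above KO BLM 141. Its log2 fold change was 0.87 with SE 0.32 and an adjusted p of 0.176 (edgeR).

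Ctsd stood at 820, 508 and 637 CPM in KO PBS and at 713, 1036 and 1277 CPM in KO BLM. KO BLM 141 fell within the KO PBS range and the other treated mice were above it. The log2 fold change was 0.62 with SE 0.24 and an adjusted p of 0.199 (edgeR). Ctsl was at 810, 325 and 423 CPM in KO PBS and 524, 671 and 846 CPM in KO BLM, with a log2 fold change of 0.39 (-0.36 to 1.14). KO BLM 141 and 143 lay within the KO PBS range of Ctsl and only KO BLM 144 was above it. Ctsk was at 95.6, 176 and 308 CPM in KO PBS and 124, 456 and 296 CPM in KO BLM. Its log2 fold change was 0.60 with an interval from -0.71 to 1.90. Cst3 was at 283, 549 and 655 CPM and at 384, 565 and 566 CPM, with a log2 fold change of 0.03 (-0.59 to 0.65). Ctsh (0.24, -0.17 to 0.65), Ctsc (0.28, -0.27 to 0.82) and Ctsb (0.13, -0.50 to 0.76) had log2 fold changes with intervals on both sides of 0.

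The count in KO mice depended on the test and on the mice with growing hair genes. DESeq2 called Ctss (adjusted p = 0.0055) and Ctsz (adjusted p = 0.016), where it called 6.14% of genes in all. In edgeR, leaving out KO PBS 136 or KO BLM 141 gave the same 2 calls, beside 14% and 6.19% of all genes, and leaving out any other mouse gave 0. Without both mice 4 were called higher, Ctss (log2 fold change 1.75), Ctsl (1.02), Ctsd (1.01) and Ctsz (0.94), beside 22.3% of all genes tested. The mice left still differed in growing hair genes, at 70 and 268 CPM in KO PBS and 3710 and 6240 CPM in KO BLM. Treatment and hair gene level cannot be told apart in that fit, nor without KO PBS 136 alone.

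**Figure D3:**
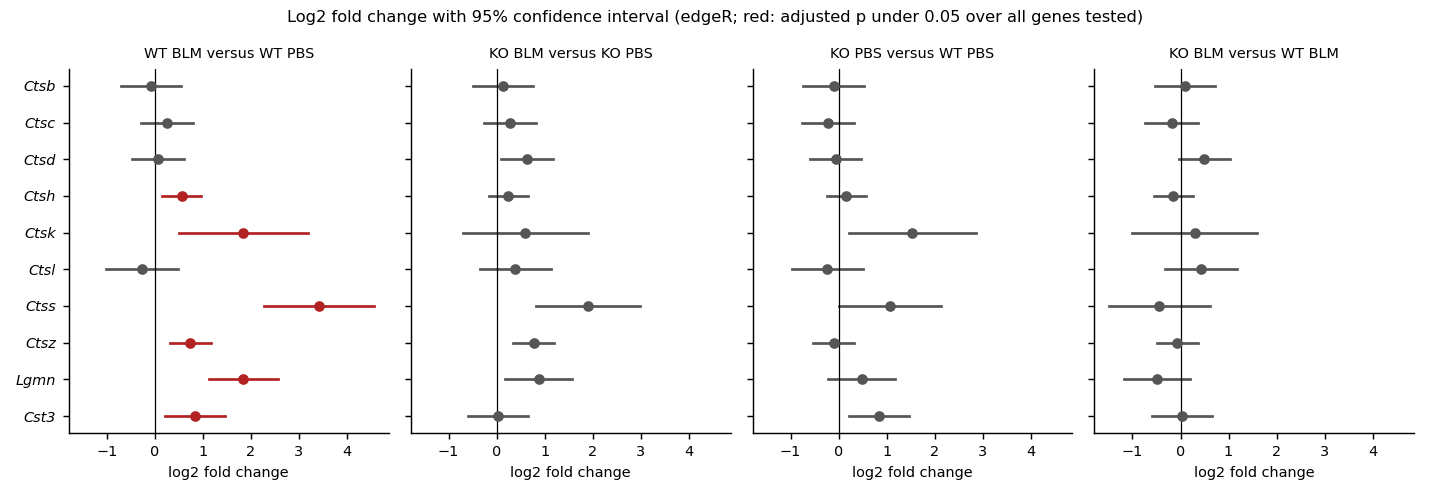
Log2 fold change (x axis) of the 10 genes (y axis) in the 4 comparisons between groups, with 95% confidence intervals from edgeR; red marks an adjusted p under 0.05 over all genes tested. In red are 6 genes, all of them in WT BLM versus WT PBS, with Ctss at 3.42.

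Between the PBS groups none of the 10 passed the test, as 0.0655% of all genes did (12 genes). At an unadjusted p under 0.05 there were 3 of the 10, Cst3, Ctsk and Ctss, beside 3727 of all genes tested. Cst3 had a log2 fold change of 0.84, SE 0.28 and an adjusted p of 0.205 (edgeR). Ctsk had 1.54, SE 0.60 and 0.221, and Ctss had 1.07, SE 0.48 and 0.245 (edgeR). For Ctsk all KO PBS mice (95.6 to 308 CPM) were above all WT PBS mice (61.8 to 69.0 CPM), and the other 9 genes overlapped. The groups did not overlap for 18.9% of all genes. KO PBS 136 lay within or below the WT PBS range for Ctss (35.3 CPM), Lgmn (84.0 CPM), Cst3 (283 CPM), Ctsh (134 CPM) and Ctsz (120 CPM), and above it for Ctsb (2023 CPM), Ctsc (256 CPM), Ctsd (820 CPM), Ctsk (95.6 CPM) and Ctsl (810 CPM). KO PBS 137 and 139 were above the WT PBS range for Ctss, Lgmn, Cst3, Ctsh and Ctsk. Both were below it for Ctsc (176 and 152 CPM), Ctsd (508 and 637 CPM) and Ctsl (325 and 423 CPM). Without KO PBS 136, edgeR called Cst3 (log2 fold change 1.12), Ctsk (1.86), Ctss (1.49) and Lgmn (0.75) higher in KO PBS than in WT PBS, beside 36.7% of all genes. In that fit the KO PBS mice had few counts on growing hair genes and the WT PBS mice had many, so that genotype and hair gene level cannot be told apart there.

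Between the bleomycin groups none of the 10 passed, none had an unadjusted p under 0.05, and all 10 overlapped. Of all genes tested 0.0928% passed (17 genes), 3043 had an unadjusted p under 0.05, and the groups did not overlap for 27.5%. The log2 fold changes of KO BLM against WT BLM ran from -0.49 for Lgmn (-1.19 to 0.20) and -0.44 for Ctss (-1.49 to 0.60) to 0.42 for Ctsl (-0.32 to 1.17) and 0.50 for Ctsd (-0.04 to 1.04). Cst3 was nearly level (0.03, -0.59 to 0.65). None was called in any of the alternative fits, with DESeq2 or with any mouse left out.

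The bleomycin responses of the 2 genotypes were compared directly as KO response minus WT response. edgeR called 0% of all genes tested, none of the 10 among them, while 5687 genes and 1 of the 10 had an unadjusted p under 0.05. That gene was Ctss, whose log2 response was 1.52 smaller in KO mice, a difference of -1.52 (95% interval -3.00 to -0.03) with an adjusted p of 0.155. The differences were -0.97 (-1.95 to 0.01) for Lgmn, -1.24 (-3.09 to 0.60) for Ctsk and -0.81 (-1.69 to 0.06) for Cst3. For Ctsz the responses were near each other, with a difference of 0.03 (-0.57 to 0.64). Ctsd (0.56, -0.20 to 1.32) and Ctsl (0.66, -0.40 to 1.71) had positive differences with intervals that include 0. DESeq2 called none of the 10 either, although it called 18.5% of the genes it tested. Without KO PBS 136, edgeR called Ctss (-1.93), Lgmn (-1.24) and Cst3 (-1.09) smaller and Ctsl (1.13) larger in KO mice, beside 39.9% of all genes. Without both mice with growing hair genes the same 4 and Ctsd (0.96) were called, beside 38.6% of all genes. In both fits growing hair genes were lower with bleomycin in WT mice (49300 to 70900 CPM in PBS, 74.1 to 863 CPM in BLM). In the KO mice left they were higher with it, at 70 and 268 CPM in KO PBS and at least 3710 CPM in KO BLM. A difference in response and a difference in hair gene level cannot be told apart in these fits.

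**Figure D4:**
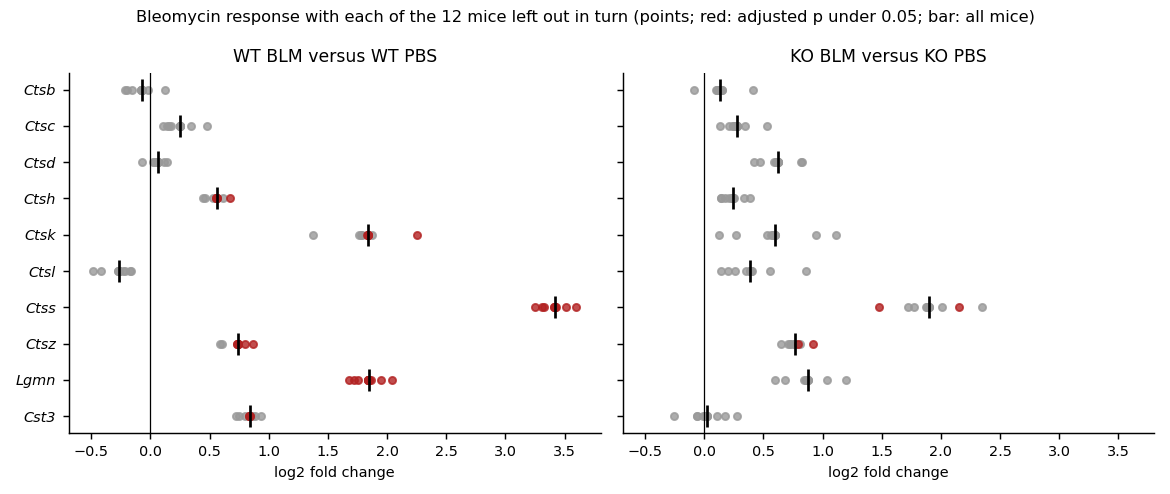
Log2 fold change (x axis) of each gene (y axis) for bleomycin against PBS in WT mice (left) and KO mice (right), with each of the 12 mice left out in turn (points); red points have an adjusted p under 0.05 in edgeR and black bars mark the value with all mice. Ctss and Lgmn stayed red in all 12 fits in WT mice, while Cst3 in KO mice lay on both sides of 0, from -0.26 to 0.28.

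Marker genes of other cell types moved with the same groups. Of 12 macrophage markers 9 were called higher with bleomycin in WT mice and 0 lower, with a median log2 fold change of 2.15. Not called were Mrc1 (log2 fold change 1.03), Mertk (-0.10) and Cd163 (-1.24, adjusted p = 0.117, edgeR), so not all markers of the list moved up. None of the 12 was at 0 in any mouse. Their summed level was 329 to 776 CPM in WT PBS, 1320 to 2190 CPM in WT BLM, 350 to 1650 CPM in KO PBS and 994 to 1290 CPM in KO BLM. The lowest KO PBS value was that of mouse 136, which also had the lowest Ctss and Lgmn of its group. In KO BLM against KO PBS 0 of the 12 were called with all mice, and 2 were higher and 2 lower without both mice with growing hair genes. In WT BLM against WT PBS, 4 of 5 neutrophil, 6 of 7 T cell, 4 of 8 fibroblast, 2 of 6 dendritic cell, 1 of 7 keratinocyte and 7 of 8 skeletal muscle markers were higher, 0 of 5 adipocyte markers were called, and 7 of 7 melanocyte markers were lower. Of all genes tested 34% were called in that comparison, 19.8% higher. In the 3 other comparisons between groups no gene of these lists was called in edgeR with all mice. Without KO PBS 136, 11 of 12 macrophage, 5 of 6 dendritic cell, 5 of 7 T cell, 1 of 5 neutrophil, 1 of 8 fibroblast, 2 of 7 keratinocyte and 6 of 8 skeletal muscle markers were higher in KO PBS than in WT PBS, and 7 of 7 melanocyte markers and 21 of 21 growing hair genes were lower, beside the 36.7% of all genes. In that fit 1 of 12 macrophage, 2 of 5 neutrophil, 1 of 7 T cell, 1 of 6 dendritic cell, 1 of 5 adipocyte and 2 of 7 keratinocyte markers were called in KO BLM against KO PBS, where 14% of all genes were. The 7 melanocyte markers were higher in KO BLM in both comparisons that use that group, as were 12 of 21 growing hair genes against KO PBS and 11 against WT BLM. Without KO BLM 141, 2 of 5 neutrophil, 2 of 7 T cell, 1 of 6 dendritic cell, 1 of 5 adipocyte and 1 of 7 keratinocyte markers were called in KO BLM against KO PBS, where 6.19% of all genes were, and 0 of these lists in the other 2 comparisons. The part of these cell types in the cathepsin results was not tested.

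**Figure D5:**
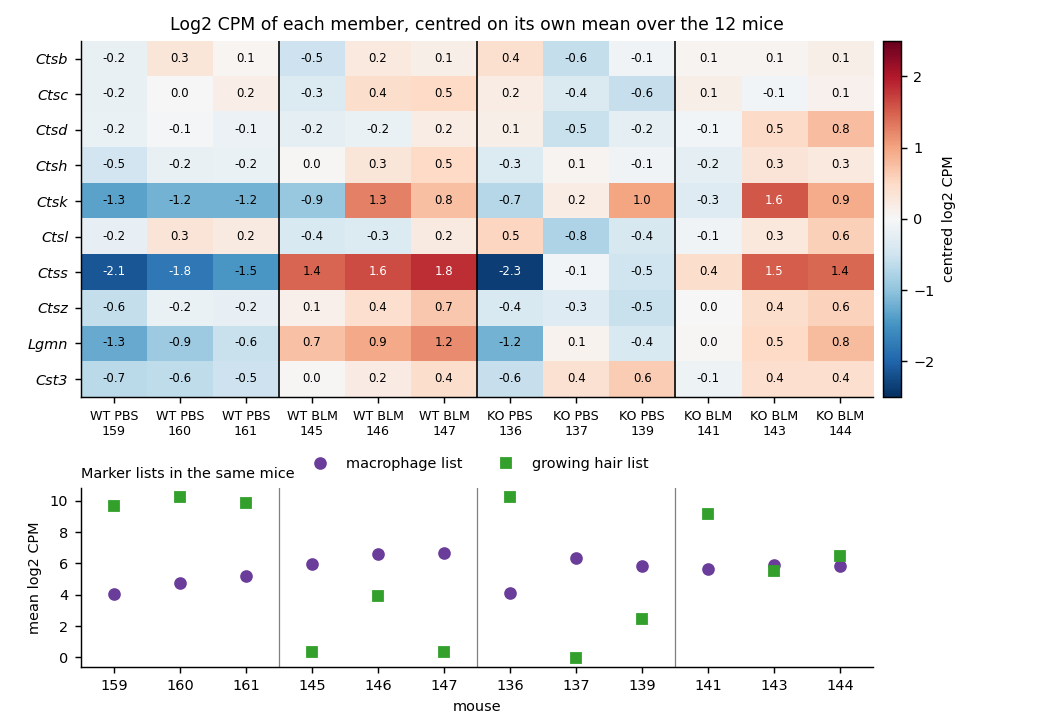
Top, log2 CPM of each gene in each mouse, centred on the mean of that gene over the 12 mice (colour and printed value). Bottom, mean log2 CPM of 12 macrophage genes (circles) and 21 growing hair genes (squares) in the same mice: KO PBS 136 had the lowest Ctss of all mice together with a macrophage mean of 4.11 and a growing hair mean of 10.25.

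The profiles of the 10 transcripts over the mice were compared as the root mean square difference of their centred log2 CPM, where 0 would be the same profile. Among the 10, Ctsh and Ctsz were closest (0.23), followed by Ctsd and Ctsl (0.23) and Ctsb and Ctsc (0.24). Ctss had no near partner. Its nearest was Lgmn at 0.75, and it was the farthest gene for Ctsb, Ctsc, Ctsd, Ctsh, Ctsl, Ctsz and Cst3, up to 1.64 for Ctsl. Ctsk, although it lies beside Ctss, was nearest to Cst3 (0.65). Among the 13193 genes compared, the 2 with the profile most like Ctss were Slc15a3, a lysosomal peptide transporter (0.19), and Gpr65, a proton-sensing receptor of leukocytes (0.23). Slc15a3 stood at 2.47 to 3.67 CPM in WT PBS and 20.8 to 32.4 CPM in WT BLM. Closest to Lgmn were Cotl1, an actin-binding protein (0.08), and Tnfrsf1b, a TNF receptor (0.15). Closest to Ctsk were Tpsg1 (0.27) and Cma1 (0.30), a tryptase and a chymase of mast cells. Like Ctsk, Cma1 was low in WT BLM 145 (15.7 CPM) and high in WT BLM 146 and 147 (45.4 and 46.4 CPM). Closest to Ctsd were Atp6v1b2, a subunit of the vacuolar proton pump (0.09), and Micos13, a mitochondrial inner membrane protein (0.11). The nearest were Pld1 and Numbl for Ctsh, Tes and Cyp4f16 for Ctsz, Dapp1 and Pir for Cst3, S100a6 and Mblac1 for Ctsl, Tax1bp3 and Vhl for Ctsb, and Pgm3 and Ralb for Ctsc, at 0.08 to 0.18.

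The rest of the lysosome was read from lists of genes. The counts in WT BLM against WT PBS stand beside 34% of all genes called in that comparison, 19.8% higher. In WT BLM against WT PBS, 26 of 40 other lysosomal hydrolases and activators were higher and 1 was lower, with a median log2 fold change of 0.72. Largest by log2 fold change were Lyz2, the lysozyme of macrophages and neutrophils (2.52, adjusted p = 0.00804), Lipa, the acid lipase (1.94, adjusted p = 0.00704), and Galns, a sulfatase of keratan sulfate breakdown (1.94, adjusted p = 0.00992). The gene that was lower, Dnase2a, the acid DNase (-0.83, adjusted p = 0.0458, edgeR), was named after its value was seen. The number called was 7 without WT PBS 159, 10 without WT PBS 160 and 17 without WT BLM 147. The 34% is the share of all genes with all mice, and shares without these mice are not given here. In KO BLM against KO PBS 0 of the 40 were called with all mice, with a median of 0.20, and 3 without KO PBS 136, where 14% of all genes were called.

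Among 6 other cathepsins 3 were called in WT BLM against WT PBS, where 34% of all genes were. Ctse, an aspartic protease of epithelia and immune cells, was lower, with 132 to 168 CPM in WT PBS and 0.470 to 3.33 CPM in WT BLM (log2 fold change -6.42, SE 1.96, adjusted p = 0.0318, edgeR). It was 170 CPM in KO PBS 136 against 0.143 and 5.33 CPM in the other KO PBS mice, and 86.2 CPM in KO BLM 141 against 7.63 and 17.3 CPM, so that its level was high in the mice with high growing hair genes. Ctsw, a cathepsin of cytotoxic lymphocytes (log2 fold change 1.17, adjusted p = 0.0476), and Ctso (0.94, adjusted p = 0.0387) were higher. With WT BLM 146 left out 1 of the 3 calls was left, and with any other WT mouse left out 0, without the shares of all genes in those fits given here.

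Of 9 other cystatins and stefins 6 could be tested, and 3 were higher in WT BLM, as were 19.8% of all genes. Stfa1 (log2 fold change 7.78, adjusted p = 0.00809) and Stfa3 (5.96, adjusted p = 0.00873) are stefins of neutrophils and epidermis, and their near-identical copies make the split of reads between them uncertain. Cst7, an inhibitor made by leukocytes, had a log2 fold change of 1.34 (adjusted p = 0.0299, edgeR). Its levels were low, at 0.691 to 1.02 CPM in WT PBS and 1.96 to 2.78 CPM in WT BLM. Stfa3 stood at 3.42 to 5.22 CPM in WT PBS and 112 to 545 CPM in WT BLM, and at 0.897 to 6.14 CPM in KO PBS and 21.7 to 658 CPM in KO BLM. In KO BLM against KO PBS 0 of the 6 passed in edgeR with all mice, where 0.306% of all genes did. In DESeq2 3 passed, and DESeq2 also called a larger share of all genes in this comparison, given above.

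Of 22 lysosomal membrane proteins 8 were higher and 1 lower in WT BLM, with a median log2 fold change of 0.26. Of all genes tested 34% were called there, 19.8% higher. Largest by log2 fold change were Slc11a1, a metal transporter of phagosomes (2.48, adjusted p = 0.00923), Laptm5 of leukocyte lysosomes (2.29, adjusted p = 0.00844) and Cd68, a macrophage glycoprotein (1.89, adjusted p = 0.0158), by edgeR. Ctns, the cystine transporter, was lower (-1.66, adjusted p = 0.0214), at 99.3 to 135 CPM in WT PBS and 35.3 to 37.1 CPM in WT BLM, and was named after its value was seen. The number called was 3 without WT PBS 159 or WT PBS 160 and 5 without any other WT mouse. These counts are not set against the share of all genes called in the same fits. Of 18 subunits of the vacuolar proton pump, which acidifies lysosomes, only Tcirg1, the subunit of osteoclasts and immune cells, was higher (1.02, adjusted p = 0.00926), and the median was -0.07. Without KO PBS 136 there were 4 calls, 1 higher and 3 lower, beside 45.7% of all genes. In KO BLM against KO PBS 0 of the 18 were called, while all 18 were above 0, with a median of 0.37. There were 5 calls without KO BLM 141, 3 without KO PBS 136 and 10 without both, where 6.19%, 14% and 22.3% of all genes were called.

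Of 14 genes of enzyme sorting and lysosome regulation 3 were higher and 2 lower in WT BLM, where 34% of all genes were called. Tfec, a myeloid relative of TFEB (log2 fold change 2.06, adjusted p = 0.0147), and Igf2r, the large mannose 6-phosphate receptor (0.79, adjusted p = 0.0119), were higher. Levels of Tfec were low, at 0.473 to 0.764 CPM in WT PBS and 1.96 to 3.31 CPM in WT BLM. Tfeb itself was also higher (0.45, adjusted p = 0.0422), and was named, like Sort1, after the values were seen. Mitf, the melanocyte member of the same family, was lower (-1.85, adjusted p = 0.00737), as was Sort1, a sorting receptor (-0.60, adjusted p = 0.0326, edgeR). Mitf moved beside the melanocyte markers, whose summed level was 1250 to 1650 CPM in WT PBS and 48.6 to 118 CPM in WT BLM. The number called was 2 without WT PBS 159 or WT PBS 160 and 3 without WT PBS 161, WT BLM 146 or WT BLM 147. Here too the share of all genes called in the same fits is not given. With all mice, edgeR called 0 genes of these lists in the 3 other comparisons between groups.

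The lists were also counted without the mice with growing hair genes. In the fits without KO PBS 136 the growing hair sums did not overlap in any comparison between groups. Hair gene level cannot be told apart from treatment or genotype there. In KO BLM against KO PBS without KO PBS 136, edgeR called 3 of 40 hydrolases and activators (2 higher), 1 of 22 membrane proteins, 3 of 18 pump subunits, 2 of 14 sorting and regulatory genes, 1 of 6 other cathepsins (lower) and 3 of 6 other cystatins and stefins, beside 14% of all genes. Without KO BLM 141 the counts were 0, 1, 5, 3, 1 and 3 in the same order, all of them higher, beside 6.19% of all genes. Without both mice they were 5, 5, 10, 5, 2 and 4, where 1 of each of the first, the second, the fourth and the fifth list was lower, beside 22.3% of all genes. In KO PBS against WT PBS without KO PBS 136, 16 hydrolases and activators were higher and 3 lower, 5 membrane proteins were higher and 3 lower, and 5 pump subunits were lower, beside 36.7% of all genes. The sorting genes had 2 calls there, the other cathepsins 3, and the cystatins and stefins 1. In KO BLM against WT BLM the same fit called 3 hydrolases and activators and 1 gene each of the membrane, pump and sorting lists, beside 6.89% of all genes. In the difference of the responses it called 4 hydrolases and activators larger and 22 smaller in KO mice, 4 membrane proteins larger and 5 smaller, 7 pump subunits larger, 1 cystatin or stefin larger, and 1 gene larger and 1 smaller in each of the sorting list and the other cathepsins, beside 39.9% of all genes. Without KO BLM 141, 0 genes of these lists were called in these last 3 comparisons.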

How the data were processed

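The authors made stranded mRNA libraries from mouse skin, sequenced them as read pairs and deposited raw read counts per gene without normalization, per the labels against GRCm38.p6. The submitters' processing notes name MultiQC 1.7. The aligner, counting tool, annotation and use of strand are not given in the sources used here. The authors tested with DESeq2. Here, counts of all 12 mice were filtered with filterByExpr (10 counts, 15 in total), scaled by TMM and fitted in edgeR 4.0.16 (R 4.3.3) by quasi-likelihood with 4 group means, and p-values were adjusted by Benjamini-Hochberg over 18311 genes at 0.05. The biological coefficient of variation was 34.9%. The fit was tested on simulated data without mice that stand apart, so that test does not cover groups such as KO PBS and KO BLM. Log2 CPM used a prior count of 2. Whether mice shared a cage or day is not known, and p-values measure the spread between mice. The alternatives were DESeq2 1.42.0, RLE scaling, no filter, a mean of at least 1 CPM, only the groups compared, each mouse left out, and KO PBS 136 and KO BLM 141 left out. Principal transcript lengths were an alternative chosen after seeing the data. From each list up to 3 called genes with the largest change in WT mice are named, and for each member the 2 genes most alike in profile (mean of at least 1 log2 CPM). The members and lists were chosen with earlier results of these data known. Positions and exons are from GENCODE M21, and promoters from RefSeq (Python 3.11.15, matplotlib 3.10.9).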

Additional observations from a re-analysis of the deposited data

How the results depend on the processing

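No paired analysis was possible because every mouse has its own number. With 1 mouse left out, the number of the 10 genes called ran from 2 to 6 in WT BLM against WT PBS (lowest without WT BLM 147, WT PBS 159 or WT PBS 160), from 0 to 2 in KO BLM against KO PBS, from 0 to 4 in KO PBS against WT PBS and from 0 to 4 for the difference of the responses. Without KO PBS 136 and KO BLM 141 together the last 3 counts were 4, 4 and 5, and DESeq2 gave 2 in KO BLM against KO PBS. Far more of all genes were also called without KO PBS 136 in these 3 comparisons, with the shares given above. So it was without both mice in KO BLM against KO PBS and in the difference, and with DESeq2 in KO BLM against KO PBS. For the WT count, shares of all genes with a WT mouse left out are not given here. Without both mice the groups compared still differed in growing hair genes. The count in WT mice was 6 with RLE scaling, DESeq2, a mean of at least 1 CPM or only the groups compared, and 4 with no filter. The cause was not tested. Directions turned only for log2 fold changes that were not called with all mice and had intervals on both sides of 0. The largest of these in size was 0.29, for Ctsk in KO BLM against WT BLM (-1.01 to 1.59). Cst3 in KO BLM against KO PBS was -0.000281 with RLE scaling, -0.0132 with no filter and -0.091 without both mice. The Ctsc difference was -0.00191 with a mean of at least 1 CPM, and Ctsz in KO BLM against WT BLM was 0.0856 without both mice. With 1 mouse left out, log2 fold changes crossed 0 in WT BLM against WT PBS for Ctsb (-0.21 to 0.12) and Ctsd (-0.0737 to 0.14), in KO BLM against KO PBS for Ctsb (-0.0835 to 0.42) and Cst3 (-0.26 to 0.28), in KO PBS against WT PBS for Ctsb (-0.39 to 0.11), Ctsd (-0.26 to 0.0926) and Ctsl (-0.71 to 0.0154), in KO BLM against WT BLM for Ctsb (-0.10 to 0.24), Ctsh (-0.27 to 0.0319), Ctsk (-0.18 to 0.77), Ctsz (-0.20 to 0.12) and Cst3 (-0.0638 to 0.23), and for the difference for Ctsb (-0.00913 to 0.49), Ctsc (-0.20 to 0.28) and Ctsz (-0.10 to 0.19). In WT BLM against WT PBS, Ctsh, Ctsk and Cst3 passed narrowly, with adjusted p of 0.0401 to 0.0427 in edgeR.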
